A study of Mus musculus with 12 samples.

Results

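The guidance genes described here are the Eph receptors and ephrins, the semaphorins and their plexin receptors, the Slit ligands and Robo receptors, and the Unc5 netrin receptors of the mouse. They were chosen by gene symbol alone, by a rule that uses no measured value but was set with earlier results of these data known. Of these families 62 mouse genes are annotated, and 52 of them were measured among 15204 genes on the arrays. The 52 comprised 13 Eph receptors, 7 ephrins, 17 semaphorins, 7 plexins, 2 Robo receptors, 3 Slit ligands and 3 Unc5 receptors. The other 10, Efna3, Epha10, Plxna4, Plxnb2, Robo2, Robo3, Sema3g, Sema4c, Sema6b and Unc5d, were not analysed here. For Efna5 and Sema3b, each with 2 probe sets, the probe sets held identical values.

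Total RNA was measured on 12 microarrays from 4 sources of mouse brain endothelial cells, with 3 arrays each. One source was b.End5, an endothelioma line, that is, a transformed line of brain endothelial origin. Co-cultured cells were primary endothelial cells of brain microvessels, grown for 5 days on transwell filters above brain glial cultures of 3 weeks in the lower well, which did not touch them. Single-cultured cells were kept for the same 5 days on such filters with no glia below. Non-cultured cells were the same kind of microvessel cells, purified by magnetic beads that bind PECAM1, a surface protein of endothelium. Only this group had the bead step in the labels, so culture and sorting cannot be told apart in any comparison with it. Mouse strain and age are not in the labels used here, and neither is a passage number of the line. The labels do not say that replicates were separate preparations, so p-values cover just the spread among these arrays, whose number limits the precision.

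In guidance signalling, a ligand on or from a neighbouring cell binds a receptor that changes the cytoskeleton and adhesion of the receiving cell, mostly so that it turns away. Ephrins stay on the cell surface and meet Eph receptor tyrosine kinases on contact, while secreted class 3 semaphorins act through neuropilins and plexins, and Slits and netrins act through Robo and Unc5 receptors. First known from growing axons, these families also steer blood vessels: ephrin-B2 and its receptor EphB4 mark arteries and veins, Sema3e repels vessels through plexin D1, and Robo4 and Unc5b are receptors of endothelial cells.

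Of the class 3 semaphorins, 4 lie on mouse chromosome 5, in the order Sema3d, Sema3a, Sema3e, Sema3c in the RefSeq table of assembly GRCm38.p6. It lists 0 protein-coding genes between Sema3d and Sema3a, 3 between Sema3a and Sema3e and 15 between Sema3e and Sema3c. These 4 genes had 4 different patterns over the cell sources, described below. The 150 bases before 1 start of each, as the RefSeq promoter table gives it, are shown because these 4 genes differed so much, together with those of Ephb1, the Eph receptor with the largest difference. Each is printed 5′ to 3′ on the gene's strand, from RefSeq on GRCm38.p6, with CG dinucleotides in capitals. The start behind the Sema3a window lies inside the annotated gene and is not its outermost one, and the Sema3d window ends a few bases past the outermost start of that gene.
Sema3d, chr5:12383016-12383165, plus strand: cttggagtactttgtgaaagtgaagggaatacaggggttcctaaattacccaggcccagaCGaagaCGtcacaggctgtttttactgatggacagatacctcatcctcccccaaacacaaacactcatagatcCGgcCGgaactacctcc
Sema3a, chr5:13396634-13396783, plus strand: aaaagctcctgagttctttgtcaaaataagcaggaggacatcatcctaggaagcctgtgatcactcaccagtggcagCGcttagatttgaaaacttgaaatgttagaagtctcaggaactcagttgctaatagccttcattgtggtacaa
Sema3e, chr5:14025126-14025275, plus strand: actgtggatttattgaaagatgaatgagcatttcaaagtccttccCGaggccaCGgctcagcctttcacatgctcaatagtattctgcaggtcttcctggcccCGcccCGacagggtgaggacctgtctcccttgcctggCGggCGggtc
Sema3c, chr5:17574666-17574815, plus strand: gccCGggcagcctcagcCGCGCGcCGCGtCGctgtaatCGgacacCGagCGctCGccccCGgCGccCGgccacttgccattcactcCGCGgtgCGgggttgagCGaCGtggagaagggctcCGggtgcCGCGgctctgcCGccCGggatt
Ephb1, chr9:102354694-102354843, minus strand: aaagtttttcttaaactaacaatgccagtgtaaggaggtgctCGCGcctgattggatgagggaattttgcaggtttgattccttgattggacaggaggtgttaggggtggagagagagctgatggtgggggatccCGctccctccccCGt

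Sema3c stood out among these windows by its base composition, with 75.3% G or C and 24 CG dinucleotides, a number reached by 2.6% of all 32843 such windows of 27020 genes. The Sema3a window held 42.0% G or C and 1 CG, that of Sema3d 49.3% and 4, that of Sema3e 56.0% and 6, and that of Ephb1 51.3% and 4. Over all windows the medians were 54.0% and 4 CG, and over the 56 windows found for 46 of the guidance genes they were 66.7% and 10.5. Searched on both strands, the GC box GGGCGG was found in the windows of Sema3c and Sema3e, in 37 of the 56 and in 28.6% of all windows. The TATA box TATAAA was found in 2 of the 56 and 7.58% of all, the AP-1 motif TGANTCA in 0 of the 56 and 4.24% of all, and the TCF/LEF motif CTTTGAT in 0 of the 56 and 1.8% of all. These are counts of letters in short windows, and RefSeq may list other starts for the same genes.

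Values are the deposited log2 values, on which 1 unit is a 2-fold difference. Array medians lay between 7.21 and 7.40, and a no-target level, taken as percentile 95 of the 27 probe sets for bacterial control transcripts, lay between 4.01 and 4.46. A gene was called when the limma p-value, with Benjamini-Hochberg adjustment over all 15204 genes, was under 0.05 and the difference was at least 2-fold. Where a gene was at or under the no-target level on all 3 arrays of a group, the fold is given as a bound against that level. Of the b.End5 arrays, replicate 2 stood apart: it correlated at 0.969 and 0.968 with replicates 1 and 3, against 0.995 between those 2, and 13 and 11 guidance genes differed by over 1 log2 unit from replicates 1 and 3, against 0. Results for guidance genes that turned on this array are given with and without it.

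Markers of the expected and of other cell types differed between the groups as well. All 8 endothelial markers, Pecam1 and Cdh5 among them, lay above the no-target level in every group, and of these only Flt1 in b.End5 and Flt1 and Tek in both cultures were called lower than in non-cultured cells. The summed linear intensity of 9 microglia and macrophage markers was 395 to 650 in b.End5, 9149 to 18817 in co-cultured, 9889 to 18491 in single-cultured and 1524 to 2131 in non-cultured cells. For 8 fibroblast and meningeal markers the sum was 250 to 352 in b.End5, 3082 to 14771 in co-cultured, 1133 to 1753 in single-cultured and 519 to 837 in non-cultured cells. Against non-cultured cells, 4 of these 8 were called higher in co-cultured cells, Col1a1, Col1a2 and Col3a1 among them, and 1, Slc6a13, lower (-1.06). The Slc6a13 call was lost without non-cultured replicate 2 or 3 or co-cultured replicate 1. In single-cultured cells 2 were higher and 0 lower, and in b.End5 cells 0 higher and 4 lower. The Col1a1 call in single-cultured cells was lost when any of the 6 arrays compared was left out, with adjusted p of 0.0506 to 0.0971. In b.End5 cells the Dcn call was lost without non-cultured replicate 2 or 3 or any b.End5 array. The Pdgfra call there was lost without non-cultured replicate 2 or b.End5 replicate 3. For 11 pericyte and smooth muscle markers the sum was 532 to 1109 in b.End5, 12740 to 19503 in co-cultured, 9217 to 13518 in single-cultured and 5322 to 7749 in non-cultured cells. Of these 11 markers 0 were called higher and 8 lower in b.End5, 4 higher and 3 lower in co-cultured and 2 higher and 4 lower in single-cultured cells, each against non-cultured cells. In single-cultured cells the contractile genes Acta2 (2.94) and Tagln (3.66) were higher and Rgs5 (-5.79), Vtn (-3.95), Abcc9 (-2.76) and Notch3 (-1.50) lower in log2 difference. The Abcc9 call was lost when any of the 6 arrays compared was left out, with adjusted p of 0.0595 to 0.0866. Over the 11 markers the mean log2 value was 5.05 to 5.54 in b.End5, 8.02 to 9.07 in co-cultured, 7.10 to 7.66 in single-cultured and 8.0 to 8.61 in non-cultured cells, so that it was lower in single-cultured than in non-cultured cells while the linear sum was higher. Microglial sums were thus far higher in both cultures than in the line or in non-cultured cells. Lyz2 was the brightest of the 9 markers in both cultures and so weighed most in these sums. Its mean log2 values were 13.06 in co-cultured, 13.23 in single-cultured and 9.74 in non-cultured cells. Over the 9 markers the mean log2 value was 4.81 to 4.89 in b.End5, 7.82 to 8.98 in co-cultured, 7.65 to 8.61 in single-cultured and 6.22 to 6.88 in non-cultured cells. Cx3cr1 differed little, with means of 5.00 in b.End5, 5.20 in co-cultured, 4.77 in single-cultured and 4.80 in non-cultured cells. Of the 9 microglia and macrophage markers, 6 were called higher in co-cultured and 4 in single-cultured than in non-cultured cells, and 0 lower in either. Without non-cultured replicate 1 these counts were 3 and 3. The Csf1r, C1qa and Mrc1 calls in co-cultured cells were lost without non-cultured replicate 1 or 2 or co-cultured replicate 1. The Ptprc call in single-cultured cells was lost when any non-cultured array was left out. In b.End5 cells 4 of the 9 were called lower and 1, Mrc1, higher (1.75). The Mrc1 call was lost without non-cultured replicate 1 (adjusted p = 0.193) or 2 (0.119), or b.End5 replicate 1 (0.152) or 3 (0.126). It was also lost when any single-cultured array, or co-cultured replicate 2 or 3, was left out of the model. Itgam was at or under the no-target level in b.End5 and non-cultured cells, Ptprc, Rgs5 and Notch3 in b.End5 cells, and Lum in all 4 groups. Astrocyte markers, 7 measured, had 3 called lower in b.End5, 2 in co-cultured and 3 in single-cultured cells and 0 higher, each against non-cultured cells. Of 6 neuron markers, 3 were called lower and 0 higher in b.End5, 3 lower and 1 higher in co-cultured and 2 lower and 1 higher in single-cultured cells. The part of these other cells in the differences below was not tested.

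Above the no-target level on all 3 arrays were 38 guidance genes in b.End5 cells, 39 in co-cultured, 36 in single-cultured and 34 in non-cultured cells. On all 12 arrays 28 were above it, and 4, Epha5, Epha6, Epha8 and Ephb6, were at or under it throughout. Of the 52 genes, 27 were called in at least 1 of 5 comparisons and 25 in none, where 26.9% of all 15204 genes were called in at least 1.

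In b.End5 against non-cultured cells, 10 guidance genes (19.2%) were called higher and 9 (17.3%) lower, against 9.1% and 9.06% of all genes. In co-cultured against non-cultured cells, 7 (13.5%) were higher and 7 (13.5%) lower, against 9.1% and 6.2% of all genes. In single-cultured against non-cultured cells, 7 (13.5%) were higher and 6 (11.5%) lower, against 7.18% and 5.82%. These 3 comparisons share the non-cultured arrays. For b.End5 against single-cultured cells, 8 (15.4%) were higher and 9 (17.3%) lower, against 6.25% and 7.82%. Glial co-culture against single culture gave 0 higher and 1 lower (1.92%), against 0.901% and 0.289% of all genes, and 5 guidance genes had an unadjusted p under 0.05.

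Against non-cultured cells, the median absolute log2 difference was 0.40 for the guidance genes and 0.33 for all genes in b.End5 cells, 0.48 and 0.31 in co-cultured cells, and 0.43 and 0.26 in single-cultured cells. In b.End5 against single-cultured cells it was 0.62 for the guidance genes and 0.29 for all genes, and in co-cultured against single-cultured cells 0.15 and 0.16. Signed medians of the guidance genes were 0.12 in b.End5, 0.02 in co-cultured and 0.07 in single-cultured against non-cultured cells, 0.09 in b.End5 and -0.05 in co-cultured against single-cultured cells. Genes were called in both directions in every comparison but co-cultured against single-cultured cells.

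**Figure D1:**
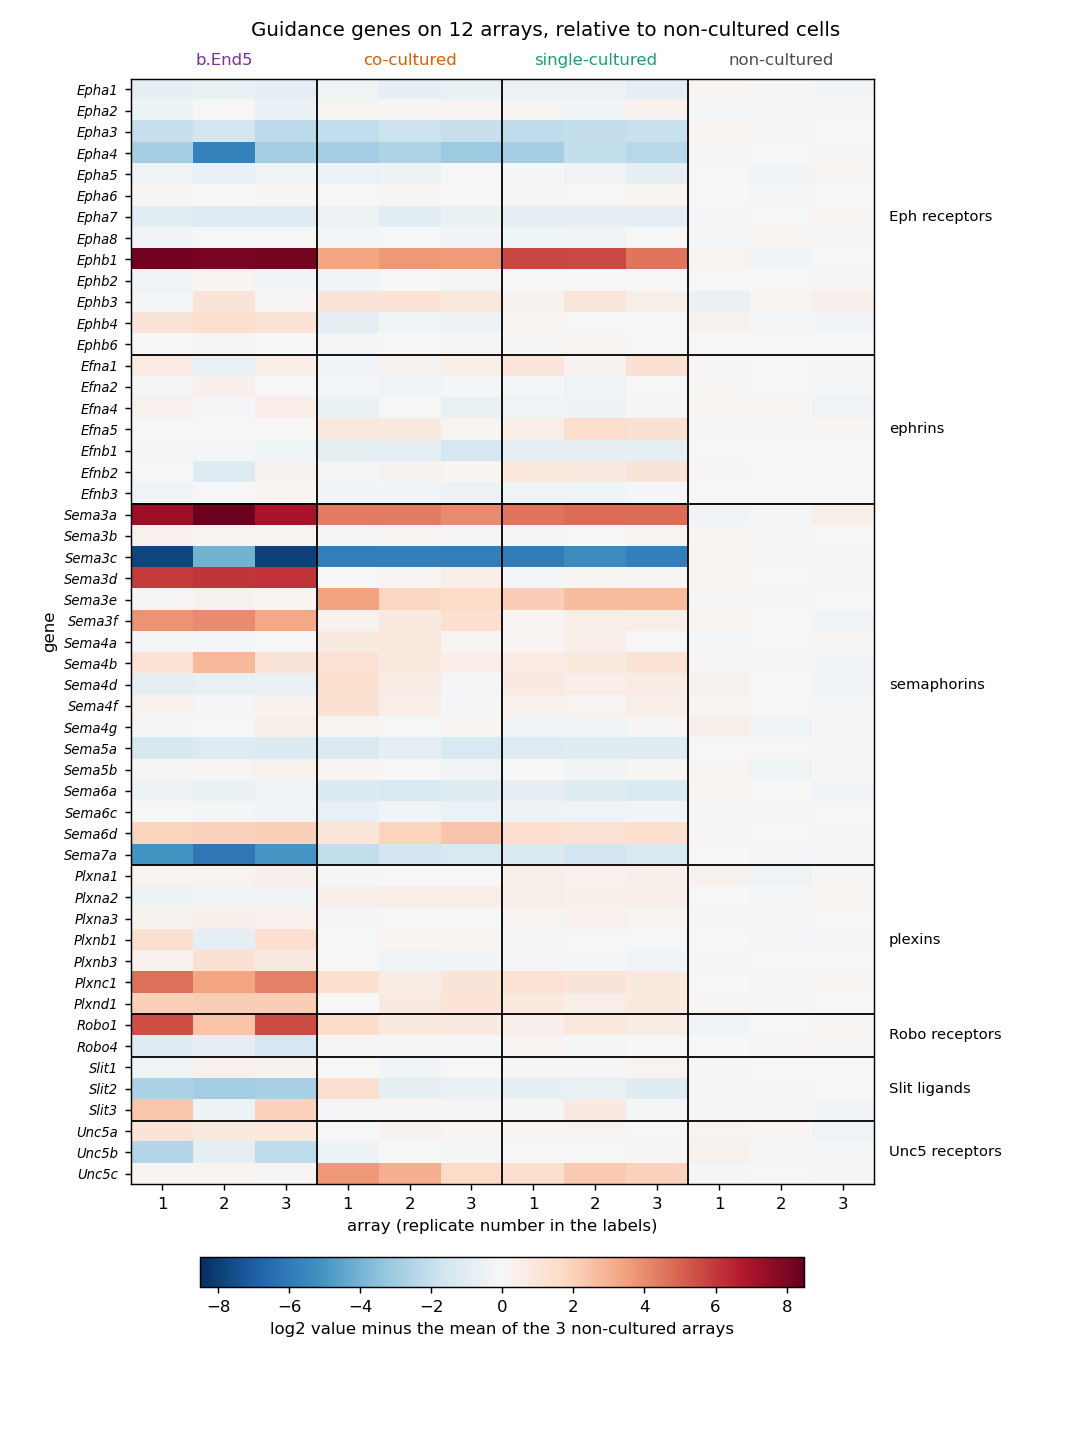
Log2 value of each of the 52 guidance genes (rows, by family) on each of the 12 arrays (columns, with the replicate number), minus the mean of the 3 non-cultured arrays. Red is higher and blue lower. The strongest colours are those of Ephb1, Sema3a, Sema3c, Sema3d and Sema7a, and b.End5 replicate 2 differs in shade from replicates 1 and 3 for Epha4, Sema3c, Robo1 and Slit3.

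Secreted class 3 semaphorins held the largest changes among the ligands. Sema3a, which repels axons and endothelial cells through neuropilin 1 and plexins of class A, had log2 values of 11.32, 12.39 and 11.08 in b.End5, 8.53, 8.46 and 8.09 in co-cultured, 8.66, 8.83 and 8.84 in single-cultured and 3.82, 3.90 and 4.53 in non-cultured cells. All 9 arrays of cultured cells and of the line lay above all 3 non-cultured arrays, on which only 1 value exceeded the no-target level. Sema3a was higher by 7.52 (SE 0.30, adjusted p = 3.76e-09) in b.End5 cells, by 4.27 (SE 0.30, adjusted p = 7.48e-07) in co-cultured and by 4.69 (SE 0.30, adjusted p = 4.60e-07) in single-cultured cells, each against non-cultured cells. The line also exceeded single-cultured cells, by 2.82 (SE 0.30, adjusted p = 2.53e-05). These are bulk samples, in which fewer cells of a type and less RNA per cell cannot be told apart.

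Sema3c, which signals through neuropilins and is known for its part in the outflow tract of the heart, went the opposite way. It had log2 values of 4.63, 8.39 and 4.48 in b.End5, 6.55, 6.61 and 6.52 in co-cultured, 6.48, 6.98 and 6.58 in single-cultured and 12.63, 12.30 and 12.32 in non-cultured cells. Every non-cultured array lay above all the others, and b.End5 replicate 2 lay well above replicates 1 and 3. Sema3c was lower by 53.3-fold in single-cultured (log2 difference -5.74, SE 0.77, adjusted p = 1.73e-04) and by 58.2-fold in co-cultured cells (-5.86, SE 0.77, adjusted p = 1.17e-04) than in non-cultured cells. In b.End5 cells the difference was -6.58 (SE 0.77, adjusted p = 3.34e-05), or 95.9-fold, and -7.86 without replicate 2. Against single-cultured cells the line differed by -0.85 (adjusted p = 0.453) with all arrays and by -2.13 (adjusted p = 1.98e-06) without replicate 2.

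Sema3d, a secreted semaphorin known for its part in patterning the pulmonary veins, was above the no-target level on the b.End5 arrays and on no others. Its values were 8.85, 9.03 and 9.04 in b.End5, 2.97, 3.11 and 3.49 in co-cultured, 2.82, 3.16 and 3.02 in single-cultured and 3.12, 2.91 and 2.73 in non-cultured cells. The 9 arrays of primary cells were all under the no-target level, so the line was at least 27.9-fold above non-cultured cells (6.05, SE 0.16, adjusted p = 2.15e-10) and at least 25.6-fold above single-cultured cells (5.97, SE 0.16, adjusted p = 6.75e-10).

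Sema3e, the ligand that binds plexin D1 without a neuropilin, was seen in cultured primary cells. It gave 3.55, 3.71 and 3.58 in b.End5, 6.86, 5.15 and 5.08 in co-cultured, 5.52, 6.03 and 6.14 in single-cultured and 3.35, 3.56 and 3.37 in non-cultured cells. Neither the line nor the non-cultured cells rose above the no-target level on any array. It was at least 2.88-fold higher in co-cultured (2.27, SE 0.38, adjusted p = 6.31e-04) and at least 3.3-fold higher in single-cultured cells (2.47, SE 0.38, adjusted p = 4.24e-04) than in non-cultured cells, and at least 3.06-fold lower in b.End5 than in single-cultured cells (-2.28, SE 0.38, adjusted p = 7.16e-04). Co-cultured replicate 1 was the highest of its group.

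Sema3f, the main semaphorin ligand of neuropilin 2, lies on chromosome 9 and showed its high values in the line. It measured 9.17, 9.35 and 8.59 in b.End5, 5.63, 6.11 and 6.77 in co-cultured, 5.59, 5.82 and 5.87 in single-cultured and 5.54, 5.34 and 5.11 in non-cultured cells. The line was apart from all primary cells, by 3.70 (SE 0.27, adjusted p = 5.53e-07) from non-cultured and 3.28 (SE 0.27, adjusted p = 3.12e-06) from single-cultured cells. Co-cultured cells differed from non-cultured cells by 0.84 (adjusted p = 0.0313), under the 2-fold limit, and by 1.11 (adjusted p = 0.00712), which was called, without co-cultured replicate 1. Sema3b was called in no comparison, with group means between 4.79 and 5.05.

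**Figure D2:**
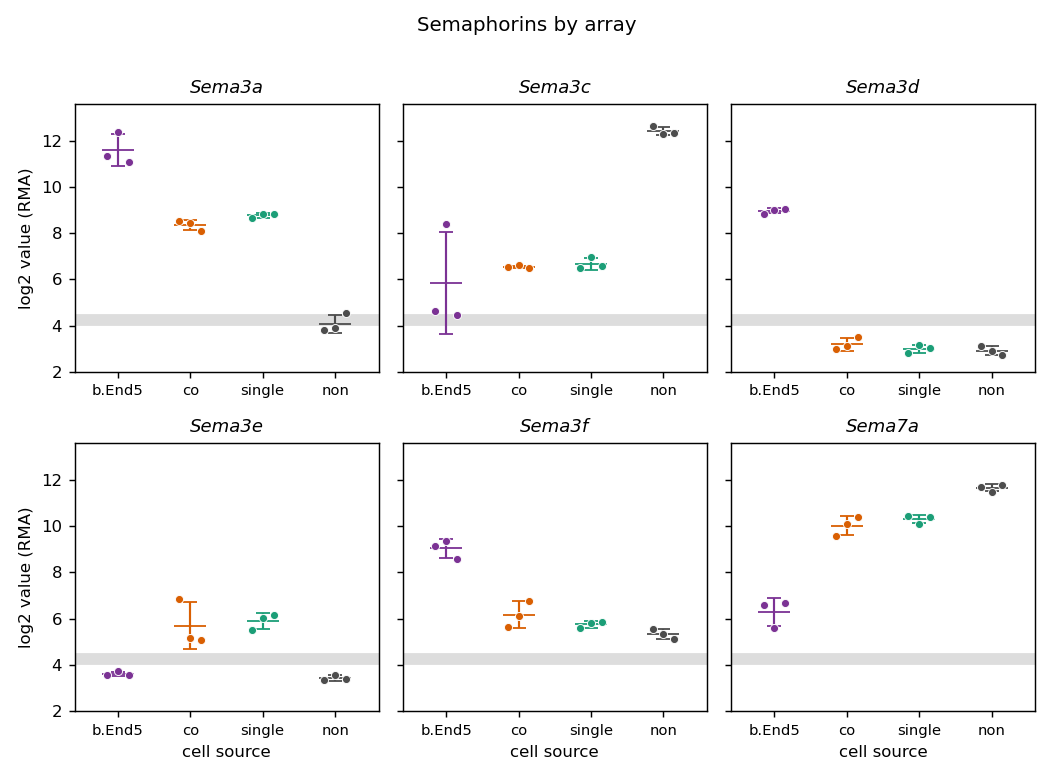
Log2 values (RMA) of 6 semaphorins on the 3 arrays of each cell source, with bars for the mean ± SD and a grey band for the range of no-target levels over arrays. Sema3a is high and Sema3c low in the line and in both cultures, Sema3d rises above the band in b.End5 cells, Sema3e in the 2 cultures, and Sema7a is lowest in b.End5 cells.

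Among the membrane-bound semaphorins, Sema7a fell most. It is held to the membrane by a lipid anchor and binds plexin C1 and integrins. Log2 values were 6.61, 5.59 and 6.68 in b.End5, 9.59, 10.08 and 10.39 in co-cultured, 10.44, 10.10 and 10.40 in single-cultured and 11.72, 11.49 and 11.79 in non-cultured cells. The line was lowest, the 2 cultures lay between and overlapped, and non-cultured cells were highest. Against non-cultured cells Sema7a fell by 5.38 (SE 0.28, adjusted p = 3.05e-08; 41.5-fold) in b.End5, by 1.65 (SE 0.28, adjusted p = 7.02e-04) in co-cultured and by 1.36 (SE 0.28, adjusted p = 0.00311) in single-cultured cells. The line was also 4.02 log2 units under single-cultured cells (SE 0.28, adjusted p = 7.99e-07).

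The class 6 semaphorins, transmembrane ligands of class A plexins, moved apart. Sema6d had 10.70, 10.76 and 10.84 in b.End5, 9.85, 10.67 and 11.21 in co-cultured, 10.24, 10.03 and 10.24 in single-cultured and 8.91, 8.82 and 8.68 in non-cultured cells. Sema6a had 9.50, 9.35 and 9.64 in b.End5, 8.79, 8.66 and 8.90 in co-cultured, 9.21, 8.88 and 8.72 in single-cultured and 10.13, 9.99 and 9.70 in non-cultured cells. For Sema6d every non-cultured array was lowest, while for Sema6a they were the highest. Sema6d rose by 1.96 (adjusted p = 8.25e-05) in b.End5, 1.77 (adjusted p = 2.47e-04) in co-cultured and 1.37 (adjusted p = 0.00183) in single-cultured cells, with an SE of 0.26 each. Sema6a fell by 1.15 (SE 0.16, adjusted p = 1.51e-04) in co-cultured and by 1.00 (SE 0.16, adjusted p = 5.25e-04) in single-cultured cells, the second of these at the 2-fold limit and under it without any of 4 arrays in turn (-0.91 without non-cultured replicate 1, -0.98 without replicate 2, -0.97 without single-cultured replicate 2 and -0.89 without replicate 3).

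Classes 4 and 5 gave smaller differences. Sema4b, a transmembrane semaphorin, had 7.31, 8.86 and 7.17 in b.End5, 7.32, 6.94 and 6.66 in co-cultured, 6.78, 6.91 and 7.24 in single-cultured and 6.19, 6.18 and 5.88 in non-cultured cells. The non-cultured arrays were the lowest, and b.End5 replicate 2 was far above all others. Against non-cultured cells it rose in b.End5 cells, by 1.69 (SE 0.37, adjusted p = 0.00311) with all arrays and 1.15 without replicate 2. The differences of 0.89 in co-cultured (adjusted p = 0.0838) and 0.89 in single-cultured cells (adjusted p = 0.0969) were not called.

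Sema4d, the ligand of plexin B1 and, on lymphocytes, of CD72, gave 4.38, 4.59 and 4.67 in b.End5, 6.57, 5.87 and 5.10 in co-cultured, 5.97, 5.81 and 5.85 in single-cultured and 5.51, 5.21 and 4.99 in non-cultured cells. The line had the lowest arrays, and it was below single-cultured cells by 1.33 on the log2 scale (-1.33, SE 0.29, adjusted p = 0.00424). Sema5a, a transmembrane semaphorin with thrombospondin repeats, had 2.91, 3.18 and 3.08 in b.End5, 3.00, 3.49 and 2.95 in co-cultured, 3.14, 3.20 and 3.21 in single-cultured and 4.19, 4.19 and 4.36 in non-cultured cells. The non-cultured arrays were apart from the rest but close to the no-target level, and the cells of the line and of both cultures were under it. Sema5a was called lower in b.End5 (-1.19, adjusted p = 4.57e-05), co-cultured (-1.10, adjusted p = 1.20e-04) and single-cultured cells (-1.06, adjusted p = 1.94e-04), SE 0.15 each, with a bound of at least 1.12-fold in co-cultured cells and no bound above 1 in the other two. Sema4a, Sema4f, Sema4g, Sema5b and Sema6c were called in no comparison, with group means of 3.33 to 3.98, 3.54 to 4.12, 4.96 to 5.25, 4.40 to 4.68 and 5.74 to 6.20.

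Ephb1 changed most of the Eph receptors, and of all 52 genes against non-cultured cells in the line. This receptor tyrosine kinase binds ephrins of class B. Log2 values were 11.58, 11.47 and 11.50 in b.End5, 6.76, 7.08 and 7.0 in co-cultured, 9.09, 9.00 and 7.94 in single-cultured and 3.59, 3.13 and 3.44 in non-cultured cells. The 4 groups did not overlap, and the non-cultured arrays were all under the no-target level. Ephb1 was at least 162-fold higher in b.End5 (8.13, SE 0.26, adjusted p = 6.19e-10), at least 6.86-fold higher in co-cultured (3.56, SE 0.26, adjusted p = 9.46e-07) and at least 22.7-fold higher in single-cultured cells (5.29, SE 0.26, adjusted p = 5.49e-08) than in non-cultured cells. The line was 2.84 log2 units above single-cultured cells (SE 0.26, adjusted p = 6.84e-06).

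Ephb1 was also the only guidance gene called between co-cultured and single-cultured cells. It was 3.31-fold lower with glia below (-1.73, SE 0.26, adjusted p = 0.00512), and its 3 co-cultured arrays, up to 7.08, lay under the lowest single-cultured array, at 7.94. Arrays of these 2 groups with the same replicate number deviated together, and with that number as a block and only these 6 arrays the adjusted p was 0.0598. With the block and all 12 arrays it was called. That fit shares 1 block effect over all groups, so it cannot decide whether a pairing of these 2 groups matters. In the same comparison 3 of 8 fibroblast and meningeal markers, Col1a1, Col1a2 and Col3a1, and 1 of 11 pericyte and smooth muscle markers, Rgs5, were called higher in co-cultured cells. Of the other pericyte markers, Kcnj8 differed by 3.68 and was called only without b.End5 replicate 2 (adjusted p = 0.00885), an array outside this comparison. Vtn differed by 1.41 and was called without co-cultured replicate 1 (1.99, adjusted p = 0.00974). The Col1a1 and Col3a1 calls were lost without single-cultured replicate 1 (adjusted p = 0.102 and 0.0974), single-cultured replicate 3 (0.108 and 0.0972) or co-cultured replicate 2 (0.072 and 0.0665). The part of these markers in the Ephb1 difference was not tested.

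Ephb4, the receptor of ephrin-B2 that marks veins, had 11.26, 11.53 and 11.31 in b.End5, 9.35, 9.96 and 9.73 in co-cultured, 10.36, 10.15 and 10.22 in single-cultured and 10.49, 10.09 and 9.95 in non-cultured cells. The line was above all primary cells, whose groups lay close together. It was higher by 1.19 (SE 0.18, adjusted p = 2.18e-04) than in non-cultured cells and by 1.12 (SE 0.18, adjusted p = 5.02e-04) than in single-cultured cells. Ephb3, also a receptor of class B ephrins, gave 4.24, 5.45 and 4.49 in b.End5, 5.45, 5.53 and 5.24 in co-cultured, 4.69, 5.38 and 4.87 in single-cultured and 3.78, 4.53 and 4.78 in non-cultured cells. Its groups lay close to each other and to the no-target level. It was called higher in co-cultured than in non-cultured cells (1.04, SE 0.32, adjusted p = 0.0268) and in no other comparison, and lost that call without non-cultured replicate 1 (0.75, adjusted p = 0.114), co-cultured replicate 1 (1.02, adjusted p = 0.0669) or co-cultured replicate 2 (0.98, adjusted p = 0.0787), and with arrays centred on their median (0.90, adjusted p = 0.0539).

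The Eph receptors called lower than in non-cultured cells were all of class A. Epha4, which binds ephrins of both classes, had 7.16, 4.21 and 7.15 in b.End5, 7.01, 7.31 and 6.85 in co-cultured, 7.06, 7.85 and 7.59 in single-cultured and 10.07, 9.97 and 9.85 in non-cultured cells. The non-cultured arrays were highest and close together, and b.End5 replicate 2 lay far under all others. Epha4 was lower by 3.79 (SE 0.61, adjusted p = 4.10e-04) in b.End5 cells and by 2.81 without replicate 2, by 2.90 (-2.90, SE 0.61, adjusted p = 0.00316) in co-cultured and by 2.47 (-2.47, SE 0.61, adjusted p = 0.00998) in single-cultured cells.

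Epha3, a receptor of class A ephrins, gave 3.94, 4.35 and 3.72 in b.End5, 3.84, 4.08 and 3.97 in co-cultured, 3.73, 3.89 and 4.04 in single-cultured and 6.09, 5.77 and 5.87 in non-cultured cells. It exceeded the no-target level in non-cultured cells and on no other array. The bounds were at least 3.1-fold lower in b.End5 (-1.91, adjusted p = 2.55e-06), at least 3.56-fold lower in co-cultured (-1.95, adjusted p = 3.53e-06) and at least 3.07-fold lower in single-cultured cells (-2.02, adjusted p = 3.31e-06), SE 0.17 each. Epha7, of the same class, had 4.08, 3.88 and 3.87 in b.End5, 4.50, 3.98 and 4.36 in co-cultured, 4.13, 4.26 and 4.14 in single-cultured and 4.84, 4.92 and 5.11 in non-cultured cells, with the non-cultured arrays highest. It was called lower in b.End5 cells (at least 1.6-fold; -1.01, SE 0.14, adjusted p = 1.49e-04), but was under the 2-fold limit at -0.94 without non-cultured replicate 3 and at -0.98 without b.End5 replicate 2 or 3. Co-cultured cells differed by -0.67 (adjusted p = 0.00335) and single-cultured cells by -0.78 (adjusted p = 0.00151), which were not called. Of the other Eph receptors above the no-target level on some arrays, Epha1, Epha2 and Ephb2 were called in no comparison, with group means of 5.89 to 6.59, 6.36 to 6.89 and 4.57 to 4.67.

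**Figure D3:**
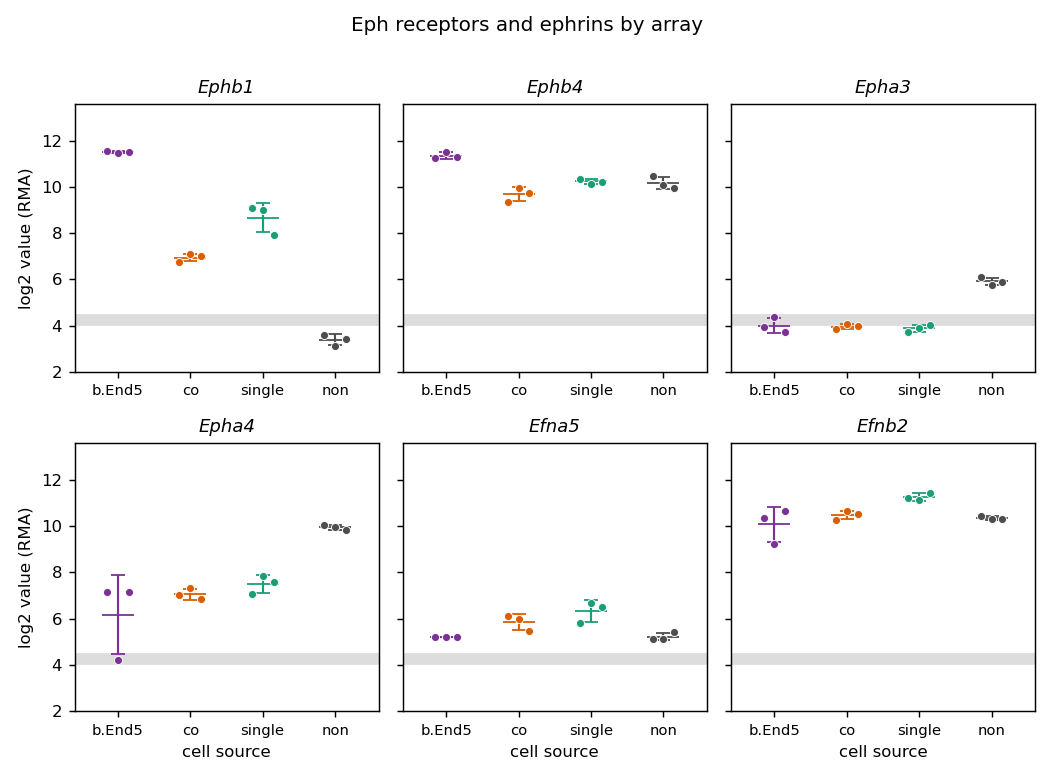
Log2 values (RMA) of 4 Eph receptors and 2 ephrins on the 3 arrays of each cell source, with bars for the mean ± SD and a grey band for the range of no-target levels over arrays. Ephb1 separates the 4 sources, Epha3 and Epha4 are highest in non-cultured cells, and Efnb2 is highest in single-cultured cells.

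Of the 7 ephrin ligands, 3 were called in at least 1 comparison. Efnb2, the ligand that marks arteries, had 10.34, 9.25 and 10.66 in b.End5, 10.28, 10.64 and 10.53 in co-cultured, 11.24, 11.13 and 11.45 in single-cultured and 10.46, 10.32 and 10.30 in non-cultured cells. All single-cultured arrays lay above all others. The line was called below single-cultured cells (-1.19, SE 0.28, adjusted p = 0.00764), at -0.77 and under the 2-fold limit without b.End5 replicate 2. Single-cultured cells differed by 0.91 from non-cultured cells (adjusted p = 0.0318) and co-cultured by -0.79 from single-cultured cells (adjusted p = 0.227), neither of which was called.

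Efna5, an ephrin held by a lipid anchor, had 5.19, 5.22 and 5.21 in b.End5, 6.11, 5.97 and 5.44 in co-cultured, 5.81, 6.69 and 6.52 in single-cultured and 5.13, 5.13 and 5.41 in non-cultured cells. Single-cultured arrays lay above those of the line and of non-cultured cells. Efna5 rose in single-cultured against non-cultured cells (1.11, SE 0.23, adjusted p = 0.00297; 0.94 without single-cultured replicate 2) and was lower in b.End5 than in single-cultured cells (-1.13, SE 0.23, adjusted p = 0.00262; -0.96 without the same array).

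Efnb1, a transmembrane ephrin, had 7.26, 7.17 and 6.96 in b.End5, 6.52, 6.60 and 5.89 in co-cultured, 6.56, 6.63 and 6.53 in single-cultured and 7.37, 7.32 and 7.33 in non-cultured cells. Both cultures lay under the line and the non-cultured cells. It was called lower in co-cultured cells (-1.01, SE 0.17, adjusted p = 6.75e-04), though under the 2-fold limit without non-cultured replicate 1 (-0.99) or co-cultured replicate 3 (-0.78) and after cyclic loess (-0.98), and differed by -0.77 (adjusted p = 0.00478) in single-cultured cells. Efna1, which inflammatory signals induce in endothelium, had group means of 8.97 in b.End5, 8.93 in co-cultured, 9.62 in single-cultured and 8.74 in non-cultured cells and was called in no comparison, but was called higher in single-cultured against non-cultured cells without single-cultured replicate 2 (1.16, adjusted p = 0.0354). Efna2, Efna4 and Efnb3 were called in none.

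Of the 7 plexins 2 were called higher in b.End5 and 1 in each culture than in non-cultured cells, and 0 lower. Plxnc1, the receptor of Sema7a, had 8.41, 7.09 and 8.0 in b.End5, 5.14, 4.32 and 4.78 in co-cultured, 4.97, 4.78 and 4.56 in single-cultured and 3.69, 3.58 and 3.87 in non-cultured cells. The line was highest, the cultures lay between, and non-cultured arrays were under the no-target level. It was at least 12.7-fold higher in b.End5 than in non-cultured cells (4.12, SE 0.30, adjusted p = 5.15e-07) and higher by 3.06 than in single-cultured cells (SE 0.30, adjusted p = 1.22e-05). In co-cultured (at least 1.49-fold; 1.03, SE 0.30, adjusted p = 0.0186) and single-cultured cells (at least 1.51-fold; 1.05, SE 0.30, adjusted p = 0.0197) the calls were lost when arrays were left out. In co-cultured cells that was without non-cultured replicate 1 (adjusted p = 0.0532), non-cultured replicate 2 (adjusted p = 0.0627) or co-cultured replicate 1 (adjusted p = 0.0753). In single-cultured cells it was without non-cultured replicate 1 (adjusted p = 0.0556), without non-cultured replicate 2 (adjusted p = 0.0676) and without its own replicate 1 (adjusted p = 0.071). With arrays centred on their median the differences were 0.88 in co-cultured and 0.98 in single-cultured cells, under the 2-fold limit.

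Plxnd1, the endothelial receptor of Sema3e, had 11.28, 11.35 and 11.31 in b.End5, 9.28, 9.99 and 10.37 in co-cultured, 10.08, 9.73 and 10.04 in single-cultured and 9.35, 9.10 and 9.24 in non-cultured cells. The arrays of the line lay together above all the rest. Plxnd1 was higher in b.End5 by 2.08 (SE 0.22, adjusted p = 1.52e-05) than in non-cultured and by 1.36 (SE 0.22, adjusted p = 6.70e-04) than in single-cultured cells, and differed by 0.72 (adjusted p = 0.0315) between single-cultured and non-cultured cells, which was not called.

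For 2 class B plexins the line's own arrays disagreed. Plxnb1, the receptor of Sema4d, had 8.26, 6.13 and 8.33 in b.End5, 6.87, 7.04 and 7.07 in co-cultured, 7.02, 6.88 and 6.92 in single-cultured and 6.89, 6.83 and 6.96 in non-cultured cells. Replicates 1 and 3 of the line lay above all primary cells and replicate 2 below them, so that Plxnb1 was not called with all arrays, while without replicate 2 it was higher by 1.40 (adjusted p = 1.69e-06) than in non-cultured cells and by 1.36 than in single-cultured cells. Plxnb3 had 4.80, 5.78 and 5.27 in b.End5 and between 4.13 and 4.50 on all other arrays. It was called higher in b.End5 cells when replicate 1 was left out, at 1.07 against non-cultured and 1.21 against single-cultured cells. Plxna1, Plxna2 and Plxna3, receptors of class 3 and class 6 semaphorins, were called in none, with group means of 6.17 to 6.60, 9.65 to 10.49 and 4.07 to 4.41.

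In the Slit and Robo families the calls involved the line. Robo1, a Slit receptor, had 8.74, 5.70 and 8.86 in b.End5, 4.81, 4.13 and 4.07 in co-cultured, 3.74, 4.17 and 3.90 in single-cultured and 3.06, 3.34 and 3.46 in non-cultured cells. All b.End5 arrays were above all others, with replicate 2 far under replicates 1 and 3. Robo1 was at least 12.1-fold above non-cultured cells (4.48, SE 0.65, adjusted p = 1.71e-04; 5.51 without b.End5 replicate 2) and at least 11.1-fold above single-cultured cells (3.83, SE 0.65, adjusted p = 8.18e-04; 4.87 without it). Co-cultured cells differed from non-cultured cells by 1.05 (adjusted p = 0.244), which was called when b.End5 replicate 2 was left out of the model (adjusted p = 0.00144) or when only these 6 arrays were fitted (adjusted p = 0.0064).

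Robo4, the Robo receptor of endothelial cells, had 10.77, 11.14 and 10.47 in b.End5, 11.98, 11.74 and 11.81 in co-cultured, 12.07, 11.80 and 11.86 in single-cultured and 11.85, 12.01 and 11.82 in non-cultured cells. The primary groups overlapped and the line lay below them. It was lower by 1.10 than in non-cultured cells (-1.10, SE 0.16, adjusted p = 1.92e-04) and by 1.12 than in single-cultured cells (-1.12, SE 0.16, adjusted p = 2.64e-04), and under the 2-fold limit without b.End5 replicate 3 (-0.94 and -0.96).

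Slit2, a secreted ligand of Robo receptors, had 4.44, 4.15 and 4.40 in b.End5, 8.49, 6.37 and 6.58 in co-cultured, 6.38, 6.52 and 6.10 in single-cultured and 7.05, 7.22 and 7.11 in non-cultured cells. The line was lowest, and co-cultured replicate 1 lay above every other array. Slit2 fell by 2.80 (SE 0.42, adjusted p = 2.43e-04) in b.End5 against non-cultured cells and by 2.01 (SE 0.42, adjusted p = 0.00366) against single-cultured cells. Slit3 had 7.85, 5.05 and 7.48 in b.End5 and between 5.28 and 6.26 on the primary arrays, and was not called with all arrays (1.28 against non-cultured cells, adjusted p = 0.0972). Without b.End5 replicate 2 Slit3 was higher by 2.15 (adjusted p = 2.71e-05) than in non-cultured and by 1.97 than in single-cultured cells. Slit1 was called in none.

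The Unc5 receptors bind netrins. Unc5c had 3.99, 4.11 and 3.96 in b.End5, 7.50, 6.96 and 5.45 in co-cultured, 5.26, 6.08 and 5.81 in single-cultured and 3.75, 3.83 and 3.98 in non-cultured cells. It exceeded the no-target level in both cultures and on no array of the line or of non-cultured cells. Unc5c was at least 5.53-fold higher in co-cultured (2.79, SE 0.41, adjusted p = 2.45e-04; 3.38 without co-cultured replicate 3) and at least 2.92-fold higher in single-cultured cells (1.87, SE 0.41, adjusted p = 0.00448) than in non-cultured cells, and at least 2.71-fold lower in b.End5 than in single-cultured cells (-1.70, SE 0.41, adjusted p = 0.00774). Co-cultured cells differed from single-cultured cells by 0.92 (adjusted p = 0.339), and by 1.51 (adjusted p = 0.0095) without co-cultured replicate 3.

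Unc5b, the Unc5 receptor of endothelial cells, had 6.60, 8.30 and 6.93 in b.End5, 8.66, 9.06 and 8.96 in co-cultured, 9.08, 9.04 and 9.18 in single-cultured and 9.44, 8.94 and 8.91 in non-cultured cells. The line lay under all primary cells, with replicate 2 nearest to them. It fell by 1.82 (SE 0.35, adjusted p = 0.00129; -2.33 without replicate 2) against non-cultured cells and by 1.83 (SE 0.35, adjusted p = 0.00182) against single-cultured cells. Unc5a differed in b.End5 by 0.93 from non-cultured cells (adjusted p = 0.0011), under the 2-fold limit, and by 1.04 or 1.01 when non-cultured replicate 1 or 2 was left out.

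**Figure D4:**
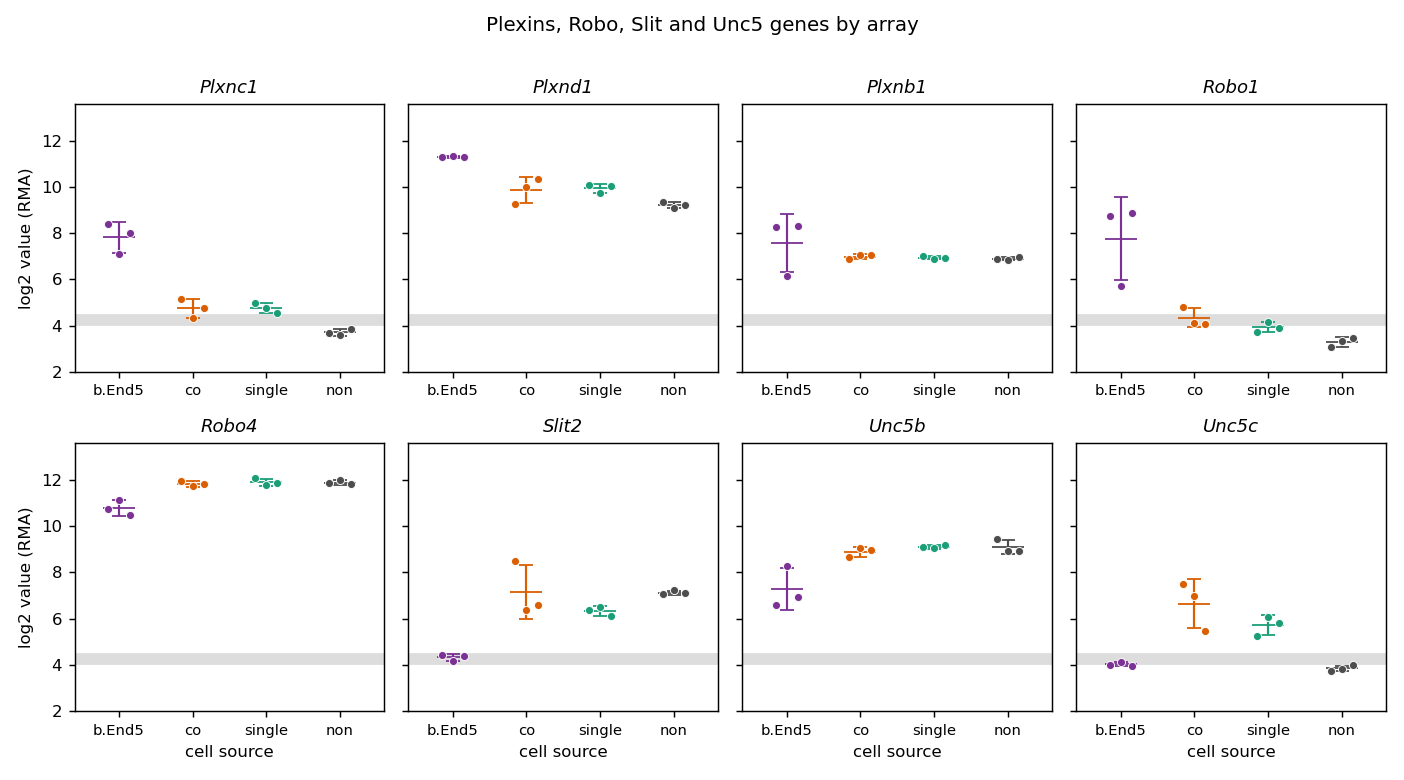
Log2 values (RMA) of 3 plexins, 2 Robo receptors, Slit2 and 2 Unc5 receptors on the 3 arrays of each cell source, with bars for the mean ± SD and a grey band for the range of no-target levels over arrays. Plxnc1, Plxnd1 and Robo1 are highest and Robo4, Slit2 and Unc5b lowest in b.End5 cells, while Unc5c rises above the band in the 2 cultures. The spread of Plxnb1 and Robo1 in b.End5 cells comes from replicate 2.

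**Figure D5:**
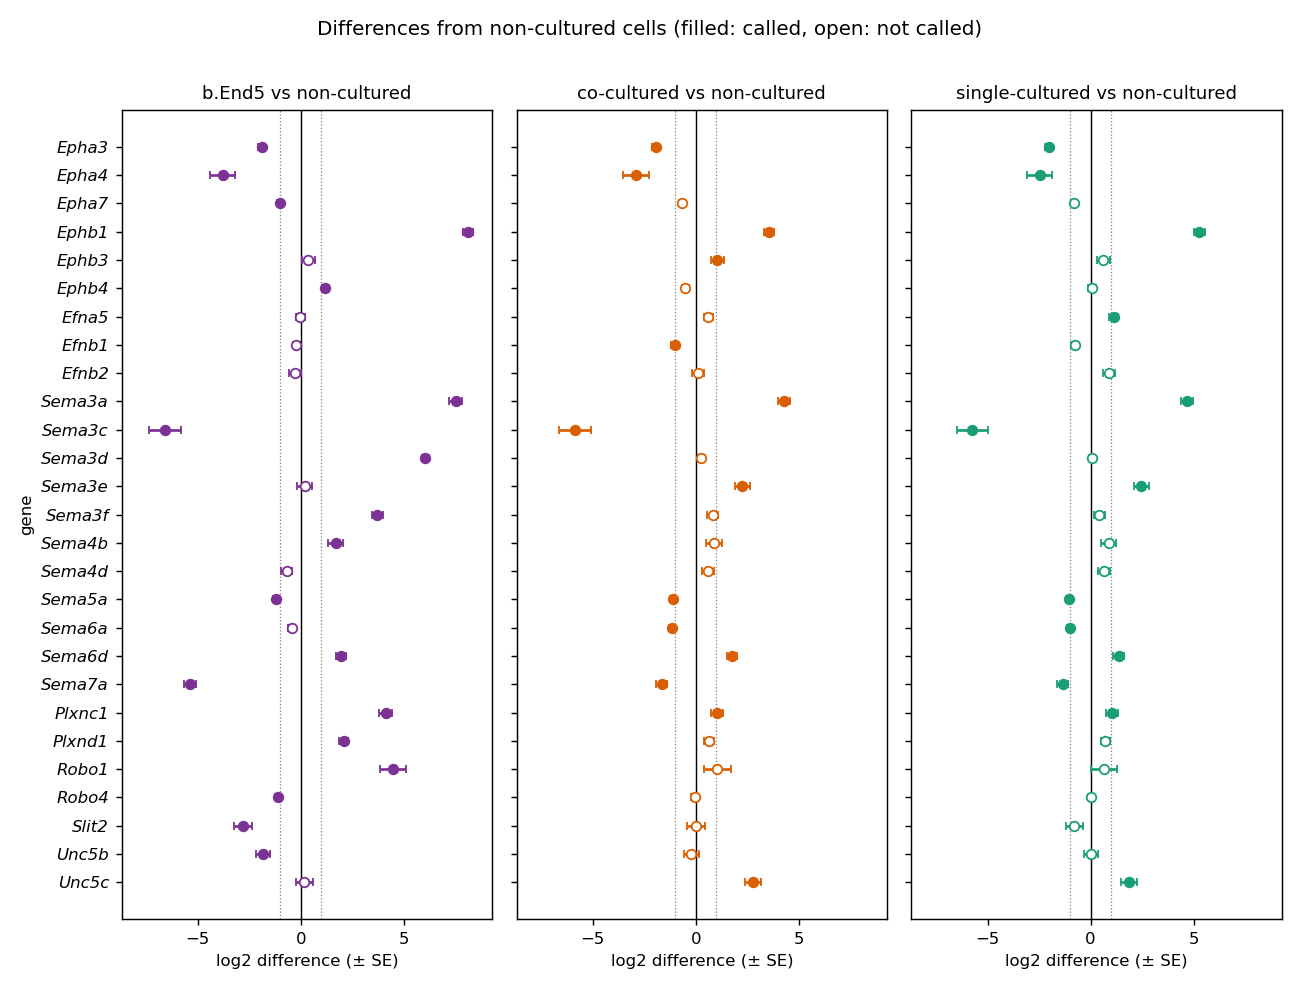
Log2 difference from non-cultured cells (± SE) of the 27 guidance genes called in at least 1 of the 5 comparisons, for b.End5, co-cultured and single-cultured cells; filled points were called, open ones were not, and dotted lines mark a 2-fold difference. The 3 panels share the non-cultured arrays. Ephb1 and Sema3a lie farthest to the right and Sema3c to the left, and Sema3d, Sema3f, Plxnd1, Robo1, Slit2 and Unc5b were called against non-cultured cells in the b.End5 panel alone.

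These markers also varied within the co-cultured group. In co-cultured replicates 1, 2 and 3 the fibroblast sum was 14771, 6245 and 3082 and the microglia sum 18817, 10834 and 9149. The pericyte and smooth muscle sum was 14493, 19503 and 12740, and so highest in replicate 2. Over the same arrays Slit2 had 8.49, 6.37 and 6.58, Sema3e 6.86, 5.15 and 5.08, Sema4d 6.57, 5.87 and 5.10, and Unc5c 7.50, 6.96 and 5.45. Replicate 1, with the highest fibroblast and microglia sums, was the highest for each of these 4 genes, which were chosen after their values were seen. Other genes were lowest there, such as Sema6d with 9.85, 10.67 and 11.21, and Plxnd1 with 9.28, 9.99 and 10.37. Of the 52 genes 21 were highest and 21 lowest in replicate 1, and the part of those cells in these values was not tested.

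A list of 31 partners of these families, co-receptors, other ligands and receptors, was measured whole. Against non-cultured cells, 5 were called higher and 3 lower in b.End5 (median log2 difference 0.09), 5 higher and 4 lower in co-cultured (median -0.13) and 5 higher and 5 lower in single-cultured cells (median -0.14). Against single-cultured cells, b.End5 cells had 3 higher and 6 lower, with a median of 0.14, and co-cultured cells 0 and 0, with a median of -0.02. Of all genes, 9.1% were called higher and 9.06% lower in b.End5, 9.1% and 6.2% in co-cultured and 7.18% and 5.82% in single-cultured cells against non-cultured cells. Against single-cultured cells these shares were 6.25% and 7.82% in b.End5 and 0.901% and 0.289% in co-cultured cells. Without b.End5 replicate 2, Flrt2 (1.99) was also called higher and Sdc3 (-1.11) lower in the line than in single-cultured cells. Lgals1, called lower there at -3.42 with all arrays, was then at -5.14. Neuropilin 1, the receptor of Sema3a, was called in no comparison, with group means of 11.04 in b.End5, 10.93 in co-cultured, 10.89 in single-cultured and 11.51 in non-cultured cells. Neuropilin 2 (Nrp2), the receptor of Sema3f, was higher by 1.36 (SE 0.19, adjusted p = 1.44e-04) in b.End5 cells and by 1.10 (SE 0.19, adjusted p = 0.00106) in single-cultured cells than in non-cultured cells. The second call was lost, at 0.93, without single-cultured replicate 1. Co-cultured cells differed from non-cultured cells by 0.99 (SE 0.19, adjusted p = 0.00185), just under the 2-fold limit, and Nrp2 was called there at 1.00 without co-cultured replicate 1 and at 1.01 and 1.03 without non-cultured replicate 1 or 2.

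Netrin 1 (Ntn1), the ligand of Unc5 receptors, had means of 10.35 in b.End5, 5.78 in co-cultured, 5.87 in single-cultured and 7.36 in non-cultured cells. It was higher by 2.98 (SE 0.22, adjusted p = 6.05e-07) in b.End5, but fell by 1.58 (SE 0.22, adjusted p = 1.72e-04) in co-cultured and by 1.49 (SE 0.22, adjusted p = 3.29e-04) in single-cultured cells, each against non-cultured cells, and higher by 4.48 in b.End5 than in single-cultured cells (adjusted p = 5.48e-08). Neogenin (Neo1), another netrin receptor, was higher by 1.24 (SE 0.32, adjusted p = 0.00944) in b.End5 and fell by 2.15 (SE 0.32, adjusted p = 3.02e-04) in co-cultured and by 2.72 (SE 0.32, adjusted p = 6.34e-05) in single-cultured cells. Between the line and single-cultured cells it differed by 3.96 (adjusted p = 2.84e-06). Flrt3, which can bind Unc5 and Robo receptors, was higher by 4.07 (SE 0.21, adjusted p = 3.25e-08) in b.End5 than in non-cultured cells. Integrin alpha 1 (Itga1), a subunit of an integrin that Sema7a binds, was lower by 6.64 (-6.64, SE 0.28, adjusted p = 5.81e-09) in b.End5 than in non-cultured cells. Met, a receptor that plexins of class B can couple to, was higher by 1.61 in b.End5 (adjusted p = 2.90e-04), 2.63 in co-cultured (adjusted p = 8.69e-06) and 2.91 in single-cultured cells (adjusted p = 4.76e-06), SE 0.25 each.

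Of 56 effectors that carry guidance signals to the cytoskeleton, 50 were measured. Against non-cultured cells 4 were called higher and 7 lower in b.End5 (median -0.01), 5 higher and 1 lower in co-cultured (median -0.05) and 5 higher and 3 lower in single-cultured cells (median 0.05). Against single-cultured cells b.End5 cells had 3 higher and 5 lower, with a median of -0.07, and co-cultured cells 1 and 0. The shares of all genes given beside the partners are the background of these counts as well. Without b.End5 replicate 2, Mras was no longer called higher in the line than in single-cultured cells (0.65, against 1.29 with all arrays). Tiam1 was then no longer called lower in the line than in non-cultured cells (-0.98, against -1.26), while Ptpn11 was (-1.075, against -0.95). The 1 gene called in co-cultured against single-cultured cells was Tiam1, an activator of Rac (1.19, SE 0.25, adjusted p = 0.0303), which was not called when any of 5 of the 6 arrays compared was left out, with adjusted p up to 0.117. Dpysl3, a collapsin response mediator of semaphorin signalling, was higher by 3.81 in b.End5, 3.82 in co-cultured and 3.66 in single-cultured cells (SE 0.35 each). Vav3, an exchange factor downstream of Eph receptors, was higher by 4.53 in b.End5, 2.27 in co-cultured and 2.00 in single-cultured cells (SE 0.20 each).

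Rnd3, a small GTPase of the family that binds plexins, was at least 9.84-fold lower in b.End5 (-3.95, SE 0.23, adjusted p = 9.53e-08), and higher by 1.56 (SE 0.23, adjusted p = 3.11e-04) in co-cultured and by 2.21 (SE 0.23, adjusted p = 2.58e-05) in single-cultured cells, each against non-cultured cells. It was at least 45.5-fold lower in b.End5 than in single-cultured cells (-6.16, SE 0.23, adjusted p = 6.21e-09). Rnd1, of the same family, fell by 2.50 in b.End5 cells (SE 0.31, adjusted p = 5.71e-05). Srgap2, a GTPase activator that acts with Robo receptors, fell by 1.39 (SE 0.15, adjusted p = 2.86e-05) in co-cultured and by 1.06 (SE 0.15, adjusted p = 2.72e-04) in single-cultured cells, the second of these at -0.99 without non-cultured replicate 1 and -0.94 without single-cultured replicate 2.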

How the data were processed

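Per the labels, total RNA was extracted with an on-column DNase step, copied with a cDNA kit for small inputs and labelled with biotin. The deposited values are on a log2 scale and were made by the authors with RMA, per the submitters' processing notes; its version is not given in the sources used here, and neither is the probe-set definition. The arrays' scanner files were not used here, so RMA's background correction and quantile normalisation stand as deposited.

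Of 21625 probe sets, 64 were controls, 16537 matched 1 symbol of the RefSeq table (GRCm38.p6) and 5024 none. For the 987 genes with several, that of highest mean over 12 arrays was kept, which left 15204 genes, with no filter on low values. A model of 4 group means over 12 arrays (8 residual degrees of freedom) was fitted with limma 3.58.1 in R 4.3.3, with Benjamini-Hochberg adjustment of p-values over all genes in each comparison. SE is limma's moderated standard error. The method was tested on simulated data. Tables and figures used pandas 2.3.3 and matplotlib 3.10.9 in Python 3.11.15.

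Values on every array are given for called genes, from the largest difference within each family, and other members by means or counts. Members, partner, effector and marker lists and alternatives were chosen with earlier results of these data known; the marker, partner and effector lists came from general knowledge. With group means removed, same-numbered arrays of the single-cultured and co-cultured groups correlated at 0.227, 0.135 and 0.232. In no other pair of groups were all above 0.1, so these 2 groups were treated as paired in the blocked alternative, although the labels state no pairing.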

Additional observations from a re-analysis of the deposited data

How the results depend on the processing

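The alternatives were leaving out each array, arrays centred on their median, cyclic loess, the dimmest 30% of genes left out, the mean of all probe sets of a gene, a replicate block, no minimum difference, an intensity trend and only the 6 arrays compared. None of the 64 calls reversed its direction under them, and 52 were kept under every alternative that gave the gene a value; the other 12 are named above with the arrays or settings concerned. Without the dimmest genes 28 of the 52 were tested, and 8 were called in co-cultured and 8 in single-cultured cells against non-cultured cells. Of all 10643 genes kept there, 1238 were called higher and 818 lower in co-cultured and 993 and 766 in single-cultured cells. With no minimum difference 22 guidance genes were called in co-cultured against non-cultured cells, instead of 14. Of all 15204 genes, 2837 were then called higher and 2387 lower in that comparison. For co-cultured against single-cultured cells, the replicate block with only the 6 cultured arrays, which was chosen after seeing the data, called 0 genes instead of 1, and leaving out 1 array gave 1 to 2. The replicate block over all arrays called 19 guidance genes in b.End5, 14 in co-cultured and 13 in single-cultured against non-cultured cells, 1 in co-cultured and 17 in b.End5 against single-cultured cells, and changed no other call. Leaving out 1 array gave 17 to 20 in b.End5, 11 to 15 in co-cultured and 11 to 13 in single-cultured against non-cultured cells, and 16 to 19 in b.End5 against single-cultured cells. Median centring moved the median of all genes in co-cultured against non-cultured cells from -0.04 to -0.19, and the split of called genes from 1384 higher and 942 lower to 1166 and 1213; the guidance genes split 5 higher and 7 lower there, instead of 7 and 7. As 4 of the 52 genes were at or under the no-target level on all arrays, no difference could be measured for them.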
